A study of Mus musculus with 120 samples.

Results

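Type 1 diabetes arises when the immune system destroys the insulin-producing β cells of the pancreas, and the study followed it at a site outside the pancreas. Here 10 fibroblast genes, Pdgfra, Dpt, Pi16, Dpp4, Cd34, Ly6a, Dcn, Lum, Fap and Mfap5, were followed in microporous scaffolds implanted in mice, a tissue the study calls an immunological niche (IN). The genes were picked by symbol, because they mark fibroblasts in general or subsets of them, and all 10 of 10 were found among the 55487 genes that both count tables list. Whole scaffolds were lysed, so each value is the RNA of every cell in the implant, and 120 samples were sequenced. The mice were NOD/ShiLtJ, an inbred strain that develops autoimmune diabetes, and NOR/LtJ, a related strain that carries the same diabetogenic MHC haplotype and stays nondiabetic. NOD mice that became hyperglycemic were progressors (10 mice, 58 samples), and NOD mice that did not were nonprogressors (11 mice, 39 samples). NOR gave 23 samples from 5 mice. Progressors were sampled at 6 weeks of age, at 7, 5, 3 and 1 weeks before onset and at onset of hyperglycemia. Nonprogressors and NOR were sampled by age, at 6 weeks and then every 4 weeks up to 22 weeks. All mice, controls included, received isoflurane and the analgesic carprofen around each surgery, and no other agent or altered gene is given for any group. Scaffolds lay under the skin of the back, and each one taken out was replaced in rotation by a new one, so later samples can come from replacement scaffolds. The labels of samples dated by age or onset do not say how long the scaffold had been in place, and age cannot be told apart from the number of past surgeries.

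The samples were sequenced in a first batch of 74 and a second of 46. All NOR samples were in batch 1. Progressor mice 1 to 5 and nonprogressor mice 1 to 4 were in batch 1, and progressor mice 6 to 10 and nonprogressor mice 5 to 11 in batch 2. All 8 samples taken 7 weeks before onset were in batch 2, also those of mice 1 to 4. Batch 2 held nonprogressors at 6 and 14 weeks only. Outside the samples taken 7 weeks before onset, batch, instrument and cohort of mice cannot be told apart, so levels are given within batch. Depth was 4722396 to 56185434 counts per sample in batch 1 and 29029239 to 43880986 in batch 2, and the lowest count of any of the 10 genes in any sample was 17, for Fap. One library stood apart, NOR at 18 weeks from mouse 5, in which 85.7% of the counts fell on CT010467.1. Fibroblast, macrophage and endothelial markers were detected in all groups. The keratinocyte genes Krt1 and Krt5, the mesothelial gene Upk3b and the neutrophil gene Ly6g had no count in some whole groups. Other markers of these cell types had counts in most samples. Samples without a count were 1 for Krt10 and for S100a8, 2 for S100a9, 3 for Msln and 25 for Retnlg.

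Fibroblasts build the collagenous capsule that surrounds an implant. Fibroblasts across tissues share Pdgfra, a receptor tyrosine kinase for platelet-derived growth factors, and the collagen-binding proteoglycans Dcn (decorin) and Lum (lumican). A subset found around vessels and in fascia, often called universal or adventitial fibroblasts, is marked by Pi16, a secreted peptidase inhibitor, by Dpp4, a cell-surface dipeptidyl peptidase, and by Dpt (dermatopontin), a matrix protein, together with Cd34, a sialomucin, and Ly6a (Sca-1), a membrane-anchored surface protein. Cd34 and Ly6a are also made by endothelial cells, and Ly6a by lymphocytes. Fap, a protease related to Dpp4, marks activated fibroblasts, and Mfap5 encodes a glycoprotein of elastic microfibrils.

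The genes lie on 7 chromosomes (GRCm38 coordinates, GENCODE M21). Pdgfra is at chr5:75152292-75198215 and Mfap5 at chr6:122505845-122529290, both on the plus strand. Pi16 is at chr17:29317680-29330593 on the plus strand, and Ly6a at chr15:74994877-74998031 on the minus strand. Dpt (chr1:164796644-164824266) and Cd34 (chr1:194938819-194961279) are far apart on the same chromosome. Dcn (chr10:97479609-97518143) and Lum (chr10:97565128-97572703) are neighbours with no protein-coding gene in the 47.0 kb between them. Dpp4 (chr2:62330073-62412231) and Fap (chr2:62500943-62574075) are separated by 88.7 kb, which hold 1 protein-coding gene, Gcg. Ly6a belongs to a family of similar genes, so the division of shared reads makes its counts uncertain.

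The bases just before the starts of Dpt, Cd34 and Dpp4 are shown. From 6 weeks of age to onset, their means fell 17.3-, 13.7- and 15.0-fold in progressors of batch 2. The mean of Pi16 fell 25.0-fold there, and its window is not printed. RefSeq windows (GRCm38.p6) were available for 5 of the 10 genes, and only bases outside the annotated gene are printed, 5′ to 3′ on the gene's own strand. Capitals mark matches to the searched motifs.
Dpt: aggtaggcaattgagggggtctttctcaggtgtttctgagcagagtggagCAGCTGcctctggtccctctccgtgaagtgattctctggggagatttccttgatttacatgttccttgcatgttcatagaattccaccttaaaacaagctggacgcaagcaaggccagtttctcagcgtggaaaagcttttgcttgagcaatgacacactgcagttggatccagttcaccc
Cd34: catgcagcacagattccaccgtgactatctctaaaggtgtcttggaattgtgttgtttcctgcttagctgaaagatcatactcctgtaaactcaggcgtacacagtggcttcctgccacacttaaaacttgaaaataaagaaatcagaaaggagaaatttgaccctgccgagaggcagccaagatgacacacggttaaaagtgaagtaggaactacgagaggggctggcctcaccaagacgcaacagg
Dpp4: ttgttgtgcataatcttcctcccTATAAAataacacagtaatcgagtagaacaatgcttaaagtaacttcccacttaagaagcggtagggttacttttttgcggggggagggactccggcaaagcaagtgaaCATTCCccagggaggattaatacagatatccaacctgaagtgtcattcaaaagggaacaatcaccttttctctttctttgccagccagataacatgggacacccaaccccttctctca
The stretches are chr1:164796413-164796643 for Dpt, chr1:194938571-194938818 for Cd34 and chr2:62412232-62412481, minus strand, for Dpp4. Searched on both strands were TATAAA (the TATA box), CAGCTG (an E-box), CCAAT (the box bound by NF-Y), GGAATG (the core bound by TEAD factors) and TGANTCA (the AP-1 site), none of which overlaps another as written. The Dpt stretch holds CAGCTG, which 11.9% of 32851 RefSeq windows hold when trimmed to the same 231 bases. The Dpp4 stretch, a full window of 250 bases, holds TATAAA, found in 12.4% of full windows, and GGAATG, found in 12.6% and read here on the other strand as CATTCC. The Cd34 stretch holds none of the 5. Among the windows not printed, that of Pi16 holds CCAAT, found in 33.8% of full windows, and that of Pdgfra none.

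Per kilobase of exon, Dcn, Lum and Ly6a stood together at the top and the peptidases Fap and Dpp4 at the bottom. Levels were CPM, counts scaled to a common library size, divided by exon length, as medians over the 120 samples with both batches pooled. Dcn had 69.3 CPM per kb, Lum 69.2, Ly6a 66.0 and Dpt 54.3. Mfap5 followed with 24.5 CPM per kb, Pdgfra with 17.6, Cd34 with 13.8 and Pi16 with 7.58. Fap had 3.70 and Dpp4 2.76 CPM per kb. Neighbours at the top could not be ordered, as Dcn was above Lum in 51 of 120 samples and Lum above Ly6a in 57. Fap exceeded Dpp4 in 74 samples and Pdgfra exceeded Cd34 in 77. The other neighbours kept their order in 100 to 113 samples. The genes also differed in how far they varied. From the lowest to the highest sample, Pi16 spanned 67.1-fold, Ly6a 64.9-fold, Dpt 56.6-fold and Dpp4 54.5-fold, whereas Pdgfra spanned 7.07-fold and Mfap5 10.2-fold. Lum spanned 32.8-fold and Cd34 26.4-fold.

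Future progressors and nonprogressors were compared at 6 weeks of age, the first time sampled, to ask whether the genes separated them before disease. In batch 1, Pi16 was 82.3, 137, 46.3, 91.9 and 89.3 CPM in progressor mice 1 to 5 and 64.1, 19.1, 62.2 and 132 CPM in nonprogressor mice 1 to 4. In batch 2 it was 222, 8.00, 202, 209 and 126 CPM in progressor mice 6 to 10, and ran from 59.0 to 187 with a median of 144 CPM in 7 nonprogressors. The classes overlapped in both batches, and progressor mouse 7 was far below its group. That sample was the lowest of its group for 9 of the 10 genes and the highest for Mfap5. None of the 10 genes passed the test (edgeR quasi-likelihood, Benjamini-Hochberg adjusted p under 0.05), as none of 19082 genes tested did (0%). At an unadjusted p under 0.05 there were 985 genes. Differences, progressor minus nonprogressor on the log2 scale, ran from -0.07 (Fap) to 0.29 (Dpp4).

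Levels at this age were higher in batch 2, in values that were not tested. Mean Dcn in nonprogressors was 521 ± 105 CPM (SD, n = 4) in batch 1 and 1003 ± 208 CPM (SD, n = 7) in batch 2. In progressors it was 545 ± 192 and 1020.1 ± 282 CPM (SD, n = 5 each). Dpp4, the dipeptidyl peptidase, averaged 22.5 and 80.7 CPM in nonprogressors, and 29.9 and 92.7 CPM in progressors. All 10 genes had the higher mean in batch 2 in both classes. Summed adipocyte markers moved the other way, with medians of 386 CPM in batch 1 and 6.01 CPM in batch 2 in progressors, and 316 and 4.35 CPM in nonprogressors. The part of adipose tissue in these differences was not tested.

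None of the 10 genes differed between NOD and NOR past the test when each mouse's samples were added up. This comparison asked whether the strain at risk differs from its control, over the 14 mice of batch 1. None of the 10 genes passed the test, where 8.98% of 23387 genes did. Differences, NOD minus NOR on the log2 scale, ran from -0.31 (SE 0.12, adjusted p = 0.122) for Pdgfra to 0.27 (SE 0.26, adjusted p = 0.6) for Ly6a. Without progressor mouse 2, Pdgfra was called lower, where 5.11% of genes were. With the 6-week samples alone the sign turned for 6 genes (Pdgfra 0.19, Dpt 0.53, Pi16 0.58, Dcn 0.48, Fap 0.39 and Mfap5 0.48), and again none of the 10 passed, where 2.11% of genes did. Of the related lists, the universal and adventitial fibroblast genes had 0 of 18 called. Genes of other fibroblast states had 3 of 15 lower in NOD (Cxcl12 -0.43, Hsd11b1 -0.39, Mfap4 -0.49). Of 5 mast cell markers 4 were lower in NOD, among them Tpsb2 -1.54 and Cpa3 -1.43.

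In NOR mice the 10 genes did not pass a test of all later ages against 6 weeks, while several had their highest levels at 22 weeks. Pi16 in NOR was 78.1, 87.3, 10.5 and 38.2 CPM at 6 weeks (mice 1, 2, 4 and 5), 32.1, 20.1, 24.7, 43.0 and 15.1 CPM at 10 weeks and 170.4, 159, 134, 88.2 and 219.8 CPM at 22 weeks (mice 1 to 5). All 5 samples at 22 weeks exceeded every sample at 6 and 10 weeks. Cd34 was 32.7, 50.9, 46.0, 40.5 and 30.7 CPM at 10 weeks and 258, 266, 179, 87.7 and 275 CPM at 22 weeks, again without overlap. Dpp4 means were 6.14 and 40.1 CPM at these ages. Lum had the opposite order of means, 164 CPM at 10 weeks and 129 CPM at 22 weeks, and its samples overlapped. Within animals, the 4 mice with both ages were all higher at 22 than at 6 weeks for Pdgfra, Dpt, Pi16, Dpp4, Cd34 and Ly6a, with mean log2 differences from 0.29 for Pdgfra to 1.88 for Pi16. For Lum, 3 of the 4 were lower. These pairs of ages were not tested by themselves, and the share of all genes that separated or moved in the same way was not counted. With 10 to 22 weeks combined against 6 weeks, 0 of the 10 genes passed, where 0.0357% of 19628 genes did. Differences ran from -0.41 (Lum) to 0.21 (Pi16) on the log2 scale. Without the 18-week library of mouse 5, 0 of the 10 passed as well, where 0.0598% of genes did, and the difference of Pi16 was -0.056.

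In NOD nonprogressors all 10 genes were lower at 10 to 22 weeks than at 6 weeks. Among all 21138 genes tested, 14.2% were lower. In batch 2, Dcn ran from 641 to 1199.7 with a median of 1080.4 CPM in 7 mice at 6 weeks, and from 315 to 533 with a median of 481 CPM in 6 mice at 14 weeks. In batch 1 it was 651, 411, 469.6 and 554 CPM at 6 weeks and 87.3, 221, 93.5 and 221 CPM at 22 weeks in mice 1 to 4. Neither pair of groups overlapped. Its fitted difference, later minus 6 weeks on the log2 scale with batch as a term, was -0.90 (SE 0.17, adjusted p = 0.000417). The other collagen-binding proteoglycan, Lum, differed by -1.18 (SE 0.19, adjusted p = 9.75e-05) and the receptor Pdgfra, with the smallest change, by -0.55 (SE 0.11, adjusted p = 0.000625). In a bulk sample, fewer fibroblasts and less RNA per fibroblast cannot be told apart.

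Pi16 and Dpp4, markers of universal and adventitial fibroblasts, had larger fitted differences within batch 2 than within batch 1. The batches also differ in the ages they hold, and the gap between batches was not tested. From 6 to 14 weeks, ages in both batches, the mean within-mouse log2 change of Dpt was -1.49 in batch 1 and -1.38 in batch 2. For Pi16 it was -0.47 and -2.05, and Dpp4, Cd34 and Ly6a had the order of Pi16. Ly6a, the Sca-1 surface protein, had the largest fitted change, -1.30 (SE 0.24, adjusted p = 0.00027). It was 127, 77.4, 119 and 159 CPM at 6 weeks and 17.1, 49.7, 18.6 and 42.9 CPM at 22 weeks in batch 1. Dpp4 changed by -1.20 (SE 0.29, adjusted p = 0.00323) and Pi16 by -1.19 (SE 0.41, adjusted p = 0.0338). For Pi16, the values were 64.1, 19.1, 62.2 and 132 CPM at 6 weeks and 9.08, 23.3, 14.4 and 40.4 CPM at 22 weeks in batch 1, and these overlapped. In batch 2, Pi16 ran from 7.21 to 49.3 with a median of 38.6 CPM at 14 weeks, below all 7 samples at 6 weeks. Cd34 changed by -1.04 (SE 0.25, adjusted p = 0.00362) and Dpt by -1.01 (SE 0.26, adjusted p = 0.00637). The remaining members, Fap and Mfap5, changed by -0.94 (SE 0.17, adjusted p = 0.0003) and -0.72 (SE 0.18, adjusted p = 0.00411). Fitted within batch 2 alone, 10 of the 10 genes were lower, where 17.3% of all genes were, with Pi16 at -2.0 and Dpp4 at -2.18. Within batch 1, 6 were lower (Pdgfra, Ly6a, Dcn, Lum, Fap, Mfap5), where 6.61% of genes were, with Pi16 at -0.64 and Dpp4 at -0.83. Without nonprogressor mouse 1, 7 of the 10 were lower, where 6.8% of genes were, and Dpt, Pi16 and Mfap5 were not. Within animals, the 6 mice of batch 2 with both ages were all lower at 14 than at 6 weeks for 9 of the genes, and 5 of 6 were for Mfap5. In batch 1, 4 of 4 mice were lower at 14 weeks for 9 of the genes and 3 of 4 for Pi16, which was 19.1 CPM at 6 weeks and 41.6 CPM at 14 weeks in mouse 2. At 22 weeks, 4 of 4 were lower for 8 of the genes and 3 of 4 for Pi16 and Dpp4. For these counts of mice, the share of all genes lower in every mouse was not counted.

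The lists around these genes moved the same way in nonprogressors. Of 15 general fibroblast markers, 12 were lower, such as Col6a2 -0.72, Col6a1 -0.71 and Col3a1 -1.02 on the log2 scale, and none was higher. Of 11 other small leucine-rich proteoglycans, the family of Dcn and Lum, 7 were lower, led by Aspn -1.84, Ogn -1.38, Omd -1.38 and Epyc -2.25. Of 18 universal and adventitial genes 10 were lower (Fstl1 -1.06, Ly6c1 -1.13, Cd248 -0.93, Bmper -1.10). Of 14 activated fibroblast genes 5 were lower (Adam12 -1.07, Postn -1.29, Cthrc1 -1.41, Tnc -0.93), and of 15 microfibril and dipeptidyl peptidase relatives 7, led by Mfap2 -1.31 and Mfap4 -1.42. Other fibroblast states had 5 of 15 lower, led by the preadipocyte gene Dlk1 -3.33. Of the 6 PDGF genes around Pdgfra, Pdgfrl -0.89 was lower and Pdgfb 0.34 higher. The median difference over the 10 genes was -1.02, and over all genes tested -0.032. Epidermal markers were lower too (4 of 5, median of the list -3.35), as were 2 of 4 Schwann cell markers and 2 of 10 endothelial markers. Their part in the result was not tested.

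**Figure D1:**
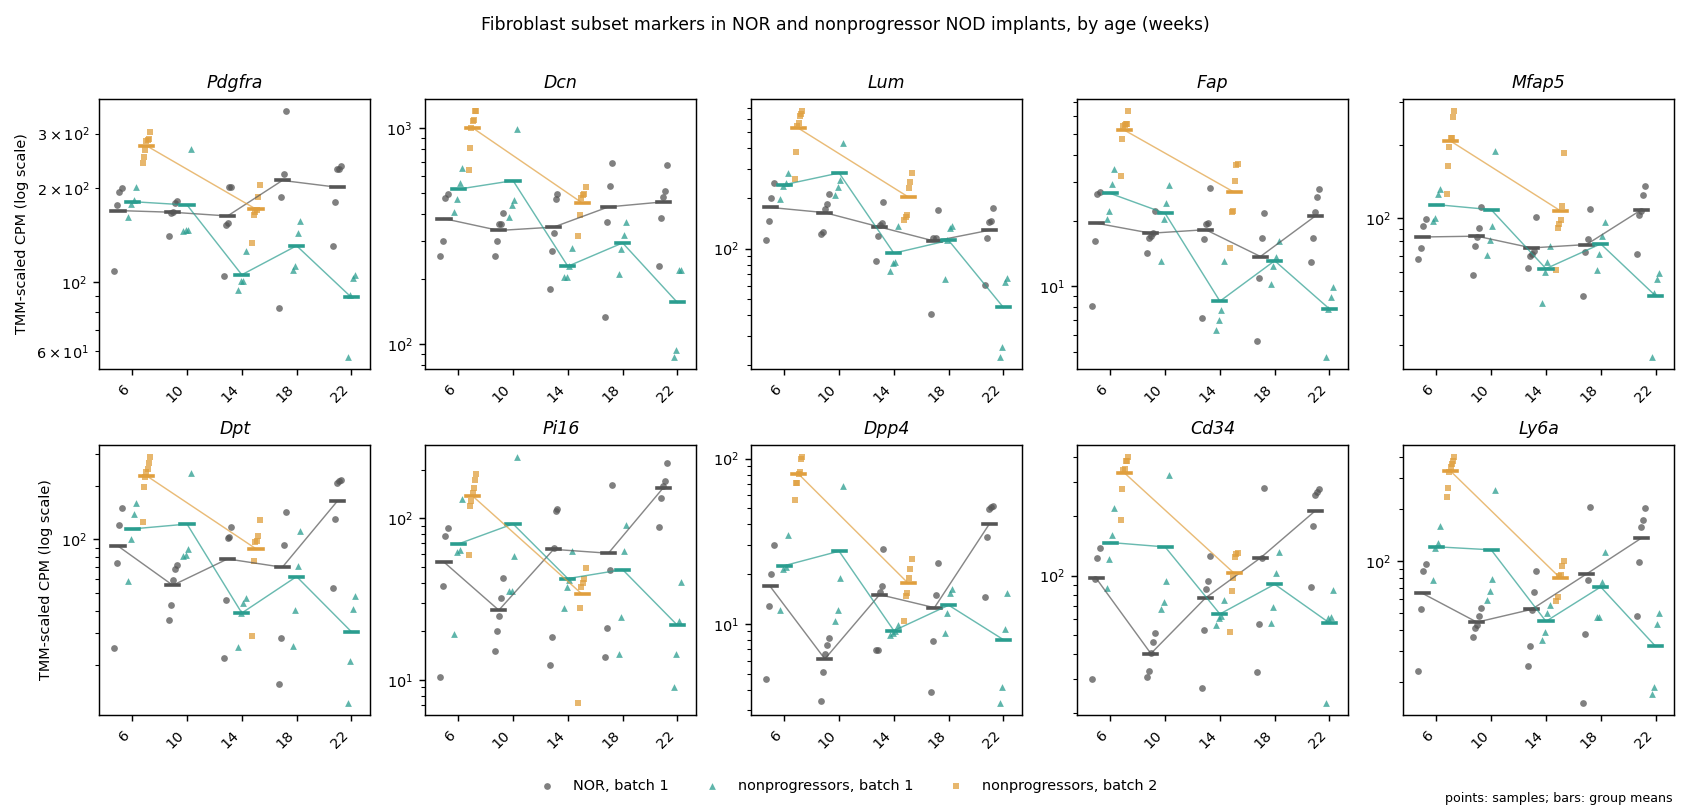
CPM (log axis) of the 10 genes in NOR (batch 1) and nonprogressor samples against age in weeks. Each point is 1 sample, coloured by strain and batch, and lines join group means. The nonprogressor means at 22 weeks lie below those at 6 weeks for all 10 genes, while the NOR means of Pi16, Dpp4 and Cd34 are highest at 22 weeks.

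The strains were then compared over the same ages. At 22 weeks, Pi16 was 170.4, 159, 134, 88.2 and 219.8 CPM in NOR mice 1 to 5 and 9.08, 23.3, 14.4 and 40.4 CPM in nonprogressor mice 1 to 4. Dcn was 510.1, 674, 384, 229.8 and 478 CPM in NOR and 87.3, 221, 93.5 and 221 CPM in nonprogressors. Both were without overlap, as were 7 of the 10 genes in all, each higher in NOR. Of 15910 genes with a mean of at least 1 CPM, 5.89% were higher in NOR without overlap. Ratios of means, NOR over nonprogressor, ran from 2.25-fold (Mfap5) to 7.08-fold (Pi16). At 6 weeks all 10 genes overlapped between the same strains in batch 1, where 3.82% of the 15910 genes were higher in NOR without overlap. The share lower in NOR was not counted. Each gene's mean at 6 weeks was lower in NOR, with ratios, NOR over nonprogressor, from 0.54 (Ly6a) to 0.94 (Pdgfra). The difference in change tested next includes this starting difference. A test of the difference in change, chosen after these levels were seen, compared the change from 6 to 22 weeks, nonprogressor minus NOR. It called 4 of the 10 genes lower, where 0.601% of 20647 genes were. They were Ly6a at -2.95 (SE 0.76, adjusted p = 0.044), Dcn at -1.98 (SE 0.52, adjusted p = 0.046), Lum at -1.97 (SE 0.50, adjusted p = 0.041) and Mfap5 at -1.60 (SE 0.36, adjusted p = 0.0259). Pi16 differed by -3.19 (SE 1.03, adjusted p = 0.0999) and did not pass. DESeq2 called 10 of the 10 lower, where 2.02% of genes were, and without a filter on low counts 1 was called, where 0.179% were. These calls rest on few mice, since the number called was 0 without NOR mouse 1, 2 or 5 or without nonprogressor mouse 1, 3 or 4, and 1 without NOR mouse 4. With all later ages combined against 6 weeks, 0 of the 10 genes passed, as did 0% of all genes (1250 of 20647 at an unadjusted p under 0.05). Those differences were all negative, from -1.14 to -0.55. Summed mast cell markers also stood apart at 22 weeks, with a median of 108 CPM in NOR and 12.2 CPM in nonprogressors, and their part was not tested.

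In progressors all 10 genes were lower from 5 weeks before onset to onset than at 6 weeks of age. Among all 21279 genes tested, 19.9% were lower. The structural genes changed by -1.17 (SE 0.21, adjusted p = 9.16e-06) for Dcn, -1.36 (SE 0.24, adjusted p = 7.65e-06) for Lum and -1.05 (SE 0.17, adjusted p = 1.83e-06) for Mfap5 on the log2 scale, with batch as a term. The receptor Pdgfra changed by -0.70 (SE 0.16, adjusted p = 0.000481) and the protease Fap by -0.98 (SE 0.23, adjusted p = 0.000704). Larger differences were fitted for the subset markers, at -1.62 (SE 0.37, adjusted p = 0.000438) for Dpp4, -1.56 (SE 0.31, adjusted p = 5.44e-05) for Ly6a and -1.48 (SE 0.42, adjusted p = 0.00385) for Pi16. Cd34 changed by -1.44 (SE 0.31, adjusted p = 0.000184) and Dpt by -1.40 (SE 0.36, adjusted p = 0.00144). Within batch 2 all 10 were called lower, where 16.4% of genes were. Within batch 1, 6 were (Pdgfra, Dpt, Cd34, Dcn, Lum, Mfap5), where 13.4% of genes were. For Pi16 the values were -1.04 within batch 1 and -2.47 within batch 2, and for Dpp4 -1.08 and -2.47. This comparison and that of nonprogressors share no sample.

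The related lists were lower in progressors as well. Of 15 general fibroblast markers 14 were lower (Col5a1 -1.27, Col1a1 -1.25, Col1a2 -1.21, Prrx1 -1.19). Of 18 universal and adventitial genes 13 were lower (Fstl1 -1.56, Cd248 -1.42, Has1 -1.31, Ly6c1 -1.45) and 1 higher (Anxa3 0.42). Activated fibroblast genes had 9 of 14 lower, among them Adam12 -1.42 and Cthrc1 -1.96, and 1 higher. The proteoglycans had 8 of 11 lower, led by Aspn -2.23 and Bgn -0.95, and the microfibril and peptidase relatives 11 of 15, led by Fbn1 -1.25 and Mfap2 -1.73. Of the PDGF genes 4 were lower, with Pdgfrl -0.87 first, and 2 higher, Pdgfb 0.27 and Pdgfa 0.33. Other fibroblast states had 5 of 15 lower, led by Dlk1 -4.25, and 2 higher. The median over the 10 genes was -1.38, and over all genes tested 0.0095. T cell markers were higher for 6 of 8 genes and B cell markers for 3 of 4, while 5 of 10 endothelial markers were lower. The part of these cell types was not tested.

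Between 6 weeks of age and onset, the cohorts parted. In batch 2, Pi16 was 222, 8.00, 202, 209 and 126 CPM at 6 weeks in mice 6 to 10, 79.4, 111, 34.2, 63.0 and 31.9 CPM at 5 weeks before onset and 9.37, 8.12, 6.02, 3.62 and 3.56 CPM at onset. Every sample at onset was below every sample at 5 weeks before it, and how many of all genes separated in this way was not counted. The mean was 25.0-fold lower at onset than at 6 weeks, though mouse 7 was already low at 6 weeks. In batch 1, Pi16 was 82.3, 137, 46.3, 91.9 and 89.3 CPM at 6 weeks in mice 1 to 5, 45.1, 7.14, 17.3, 11.5 and 12 CPM at 5 weeks before onset and 73.6, 172, 15.4, 126 and 8.42 CPM at onset. Here the low point came at 5 weeks before onset, and at onset mice 1, 2 and 4 were high and mice 3 and 5 low.

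Dpt followed the same course, with 113, 161, 129, 159 and 61.0 CPM at 5 weeks before onset and 28.5, 10.6, 10.4, 5.96 and 15.1 CPM at onset in batch 2. In batch 1 it was 58.5, 61.0, 24.2, 30.4 and 20.4 CPM and then 109, 231, 19.6, 197 and 15.0 CPM. Cd34 was 120.0, 196, 98.8, 152 and 99.7 CPM before and 41.3, 21.8, 19.4, 19.0 and 24.1 CPM at onset in batch 2. In batch 1 it was 67.1, 29.9, 32.1, 43.5 and 50.6 CPM and then 141, 284, 43.1, 201 and 26.4 CPM. The batch 2 groups did not overlap for either gene and the batch 1 groups did, with the share of all genes not counted for this pair of times. Dcn, the proteoglycan, was 1309.9, 566, 1111, 1149 and 964 CPM at 6 weeks and 269, 160.4, 219, 116 and 195 CPM at onset in batch 2. In batch 1 it was 564, 835, 397, 586 and 344 CPM and 381, 575, 139.6, 476 and 109 CPM. Ratios of means from 6 weeks to onset in batch 2 were 17.3 for Dpt, 15.0 for Dpp4, 13.7 for Cd34 and 12.8 for Ly6a. They were 6.43 for Lum, 5.32 for Dcn, 5.15 for Fap, 3.62 for Mfap5 and 2.95 for Pdgfra. In batch 1 the same ratios lay between 1.09 and 1.92. Between 6 weeks and onset, 8 of the 10 genes were lower without overlap in batch 2, as were 11.6% of the 15910 genes with a mean of at least 1 CPM. In batch 1, 0 of the 10 were, against 6.79% of those genes.

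**Figure D2:**
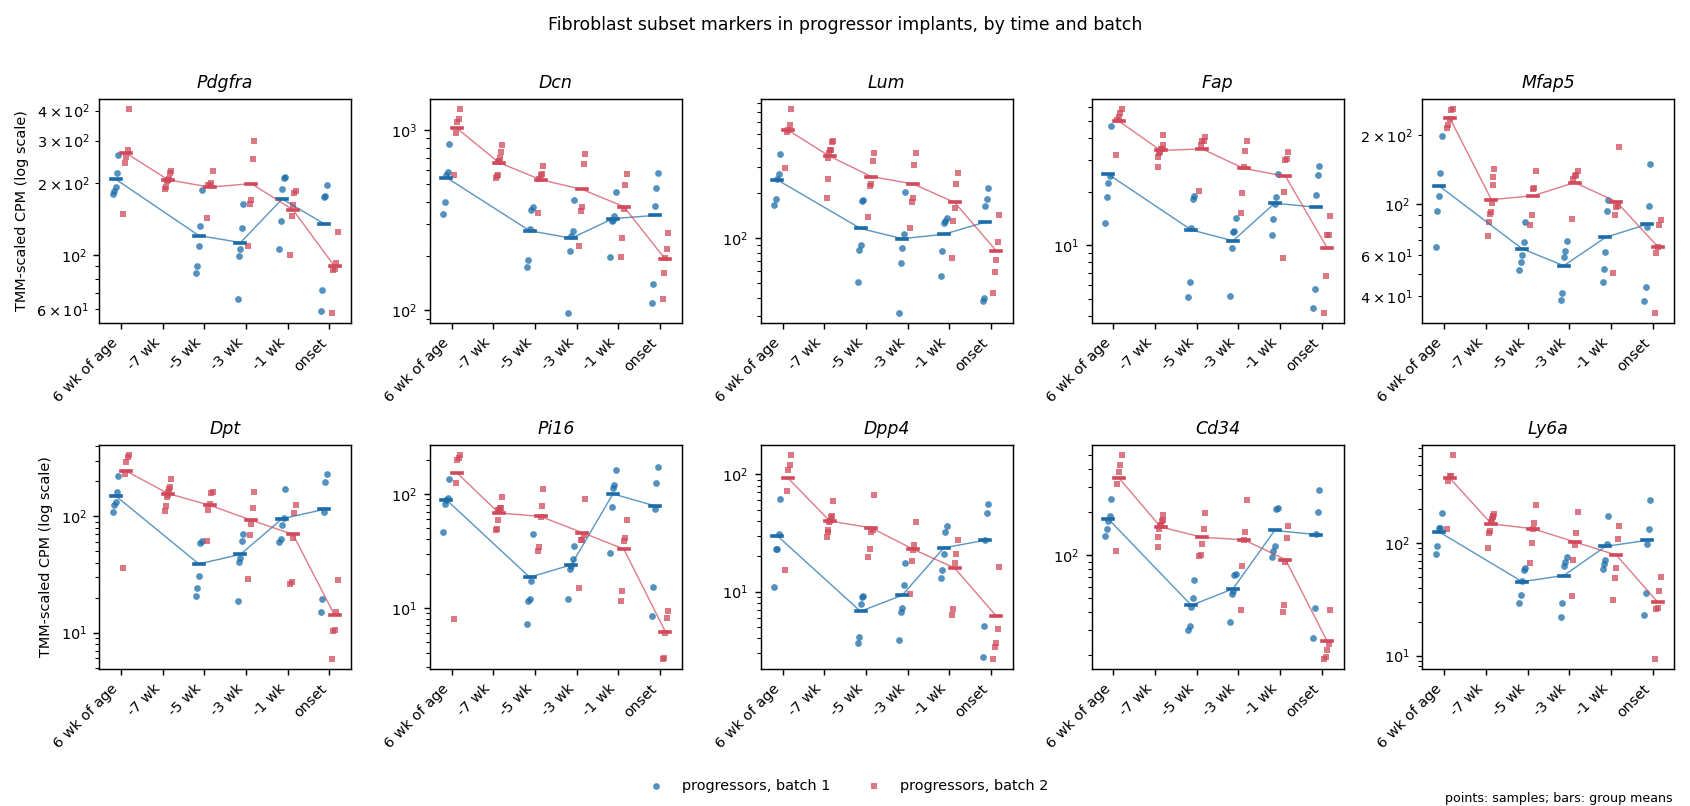
CPM (log axis) of the 10 genes in progressor samples at 6 weeks of age and at weeks before onset, with onset as 0. Each point is 1 sample, coloured by batch, and lines join batch means. At onset the batch 2 means lie below the batch 1 means for all 10 genes, while at 6 weeks they lie above them.

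The difference between batches in the change was tested after these levels were seen. For the change from 6 weeks to onset, batch 2 minus batch 1, 6 of the 10 genes were lower, where 2.93% of 21708 genes were. These were Pi16 at -4.45 (SE 0.91, adjusted p = 0.00314), Dpp4 at -3.76 (SE 0.86, adjusted p = 0.00728), Dpt at -3.71 (SE 0.81, adjusted p = 0.00534), Ly6a at -3.41 (SE 0.70, adjusted p = 0.00324), Cd34 at -3.40 (SE 0.64, adjusted p = 0.00175) and Dcn at -1.70 (SE 0.52, adjusted p = 0.0391). Mfap5 (-1.29, adjusted p = 0.0505), Fap (-1.74), Lum (-1.74) and Pdgfra (-0.94) did not pass. For the change from 5 weeks before onset to onset, 7 of the 10 were lower, where 3.91% of genes were. Pi16 differed by -5.45 (SE 0.93, adjusted p = 0.000512), Dpt by -4.69 (SE 0.82, adjusted p = 0.000556), Dpp4 by -4.49 (SE 0.87, adjusted p = 0.00159) and Cd34 by -4.04 (SE 0.65, adjusted p = 0.000445). Ly6a differed by -3.39 (SE 0.70, adjusted p = 0.00274), Fap by -2.27 (SE 0.58, adjusted p = 0.0152) and Dcn by -1.74 (SE 0.52, adjusted p = 0.0351). Leaving out single mice gave 5 to 8 calls for the first change and 5 to 9 for the second, beside 571 to 1531 and 356 to 1484 of all genes. With both batches pooled, onset minus 5 weeks before onset called 0 of the 10 genes, where 1.77% of 21279 genes passed in either direction. Within batch 2 all 10 were lower, where 5.9% of genes were. Within batch 1 none passed, where 0.0051% of genes did (1 of 19596, and 3322 at an unadjusted p under 0.05), and all 10 differences were positive.

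Other genes differed between the cohorts in the same 2 intervals. Of 18 universal and adventitial genes, 8 were lower in the first (Sema3c -4.61, Clec3b -5.10, Cd55 -3.41, Ly6c1 -3.36) and 11 in the second (Clec3b -6.54, Sema3c -5.56, Tnxb -4.27, Cd55 -3.84). General fibroblast markers had 2 of 15 and 3 of 15 lower, among them Prrx1 -1.30 and Col3a1 -1.66 in the first. Medians of the differences from 6 weeks to onset were -2.57 for the 10 genes, -1.73 for the universal and adventitial list, -0.72 for the general fibroblast markers and 0.021 over all genes tested. Mast cell markers had 3 of 5 lower in the first interval and 4 of 5 in the second (Cpa3 -6.10, Cma1 -5.98). Adipocyte markers had 2 of 6 higher in the first interval, with a list median of 4.57. Endothelial markers had 1 of 10 and 6 of 10 lower, led by Tek -3.51 in the second. Summed fibroblast markers had medians of 64232 CPM at 6 weeks and 15266 CPM at onset in batch 2, and 61467 and 38410.1 CPM in batch 1. Summed endothelial markers went from 322 to 93.1 CPM in batch 2 and from 361 to 284 CPM in batch 1. Macrophage markers went from 6314 to 8844 CPM in batch 2. Mast cell markers at onset had medians of 58.1 CPM in batch 1 and 13.2 CPM in batch 2. The part of these cell types in the members' change was not tested.

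**Figure D3:**
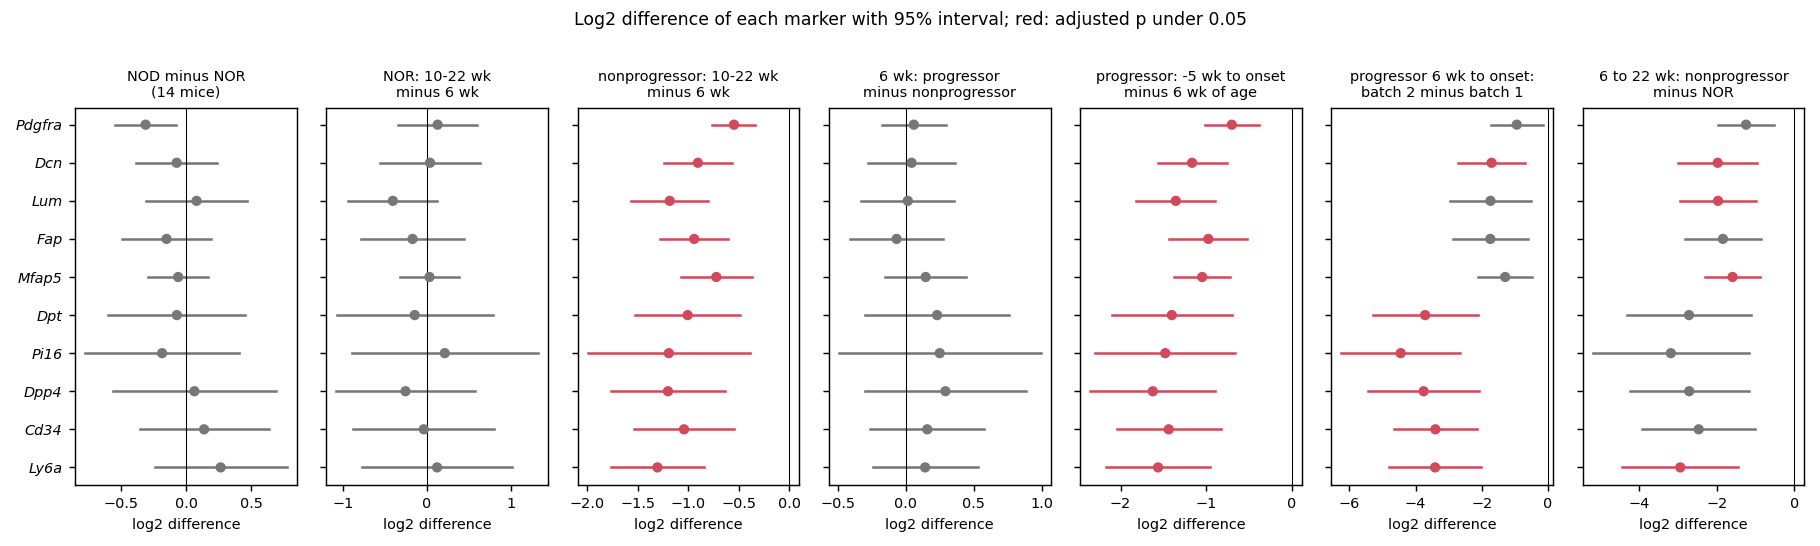
Fitted log2 differences of the 10 genes with nominal 95% intervals in a selection of the comparisons above. The intervals are 1.96 SE to each side, a normal approximation that is narrower than the F test implies. Red points pass an adjusted p under 0.05 and grey points do not. The points lie left of 0 for all 10 genes in nonprogressors and progressors over time. The point furthest left is Pi16 at -4.45, in the difference between batches from 6 weeks of age to onset.

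The samples taken 7 weeks before onset gave a second early point. In batch 2, Pi16 was from 48.5 to 94.1 with a median of 72.4 CPM in these 8 samples, and Dcn from 539 to 825 with a median of 672 CPM. Against onset in batch 2, 9 of the 10 genes were higher without overlap, the exception being Mfap5, where 5.12% of the 15910 genes were. These groups hold different mice in part, because mice 1 to 4 have their onset samples in batch 1. Pi16 in mice 1 to 4 was 75.7, 72.8, 76.3 and 58.8 CPM at 7 weeks before onset. At onset, in batch 1, it was 73.6, 172, 15.4 and 126 CPM. From 6 weeks to 7 weeks before onset, the 4 mice with both samples in batch 2 were all lower for Dcn, Lum, Ly6a, Fap and Mfap5, and 3 of 4 were for the rest. How many of all genes were lower in every mouse was not counted. In the fit over both batches, 1 of the 10 genes was lower from 5 weeks before onset to onset than at 7 weeks before, Lum at -0.95 (SE 0.29, adjusted p = 0.0474), where 1.91% of 21279 genes were lower. The value rests on the batch term, because mice 1 to 4 were sequenced in batch 2 for this time and in batch 1 for the others. Within batch 2, 8 of the 10 were lower, where 3.93% of genes were, with mice 1 to 4 present at 7 weeks before onset only. With the mouse as a block 0 were, as was 0% of all genes (3014 at an unadjusted p under 0.05). By DESeq2 2 were, Dcn and Lum, where 2.47% of genes were, and without a filter on low counts 0, where 0.984% were.

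Late progressors and nonprogressors of similar age were compared in batch 1, to ask what sets apart mice with disease. Pi16 was 73.6, 172, 15.4, 126 and 8.42 CPM at onset in progressor mice 1 to 5 and 14.5, 62.6, 90.9 and 24.6 CPM in nonprogressors at 18 weeks. None of the 10 genes passed, as did 0% of 18555 genes (1505 at an unadjusted p under 0.05, and 63 called by DESeq2). Differences ran from 0.04 to 1.08 on the log2 scale. The progressors at onset in batch 2 have no nonprogressors of that age in their batch.

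Ratios between members within a sample varied more for subset markers set against general ones than among the general ones. The mean log2 ratio of Pi16 to Dcn was -3.29 ± 1.56 (SD, n = 5) at 6 weeks in batch 2 progressors, -3.18 ± 0.58 at 5 weeks before onset and -4.89 ± 0.50 at onset. In batch 1 it was -2.61 ± 0.42, -4.08 ± 1.04 and -2.55 ± 0.81. In NOR it was -3.68 ± 0.54 at 10 weeks and -1.53 ± 0.35 at 22 weeks (SD, n = 5 each), and in nonprogressors -2.88 ± 0.39 at 22 weeks (SD, n = 4). Dpp4 and its chromosomal neighbour Fap also parted in NOR, with a mean log2 ratio of -1.48 ± 0.31 at 10 weeks and 0.84 ± 0.39 at 22 weeks. The proteoglycans Lum and Dcn kept closer, with an SD of 0.37 over all 120 samples against 0.97 for Pi16 and Dcn. No test was run on these ratios, since they were chosen from the members.

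Within groups the 10 genes varied together to different degrees. After the mean of each group and batch was subtracted from log2(CPM + 0.5), Pearson's r over 114 samples ran from 0.453 to 0.920 for the 45 pairs, with a median of 0.765. The closest pairs were Dpt with Cd34 (0.920), the neighbours Dcn with Lum (0.902) and Pi16 with Cd34 (0.889). Mfap5 was in the 3 loosest pairs, with Pdgfra (0.453), Fap (0.463) and Pi16 (0.503). These correlations are descriptions, as samples of a mouse and genes of a library share dissection, depth and scaling. Of 15910 genes with a mean of at least 1 CPM, those outside the set with the highest mean r to its members were Ly6c1 (0.818), C1s1 (0.815), Scara3 (0.812), Nid1 (0.811) and Col14a1 (0.811). Arsi (0.804), Lbp (0.794), Ifi205 (0.793), Efemp1 (0.786) and Zeb1 (0.778) followed. C1s1 encodes a complement protease, Nid1 a basement membrane glycoprotein, Col14a1 a fibril-associated collagen and Zeb1 a transcription factor. Taken singly, Pi16 and Dpt were both closest to Clec3b (0.937 and 0.949), the gene of tetranectin. Dpp4 was closest to Sema3c (0.924), a secreted semaphorin, Ly6a to its relative Ly6c1 (0.954), Cd34 to Galnt16 (0.934) and Pdgfra to Igsf10 (0.946). Dcn was closest to the complement gene C1ra (0.919), Lum to the matrix metalloproteinase Mmp2 (0.896), Fap to the laminin gene Lama2 (0.882) and Mfap5 to Gpx8 (0.868). By list, the median of the mean r was 0.626 for universal and adventitial genes, 0.559 for mast cell markers, 0.535 for general fibroblast markers and 0.527 for the other proteoglycans. It was -0.066 for adipocyte markers and -0.0525 over all genes.

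**Figure D4:**
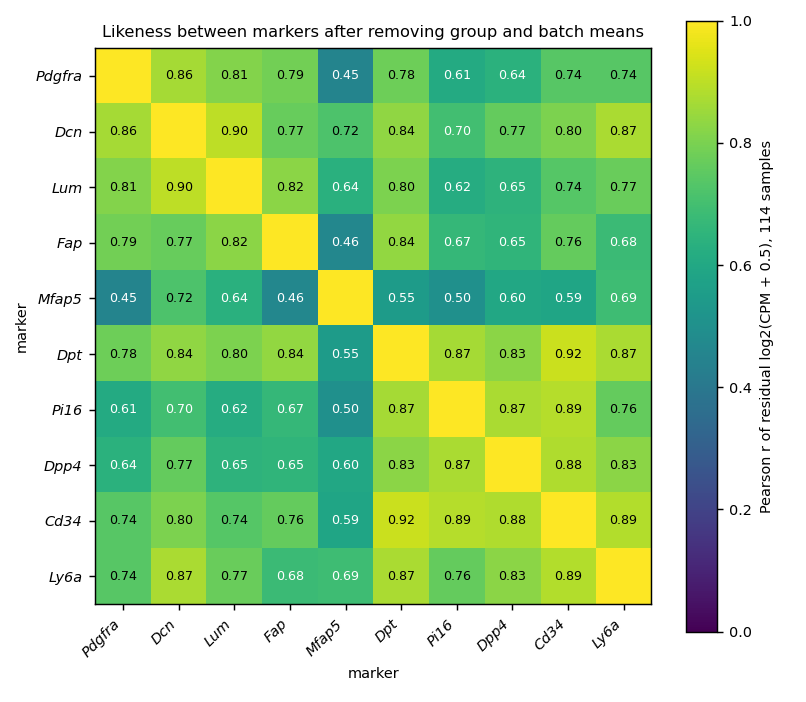
Pearson's r between the 10 genes over 114 samples, after removing the mean of each group and batch from log2(CPM + 0.5); colour and number give r from 0 to 1. Mfap5 forms the row with the lowest values, down to 0.45 with Pdgfra, while Dpt, Pi16, Dpp4, Cd34 and Ly6a pair at 0.76 to 0.92. Pairs among Pdgfra, Dcn, Lum and Fap lie at 0.77 to 0.90, and pairs across these sets reach 0.87 (Ly6a with Dcn).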

How the data were processed

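Total RNA of 120 scaffold samples was depleted of ribosomal RNA and sequenced in 2 batches on different NovaSeq instruments. The authors deposited RSEM expected counts as whole numbers per gene, without normalization, in a table for each batch. The submitters' processing notes name cutadapt, FastQC, STAR, RSEM and MultiQC, with no versions, and GRCm38. Expected counts share reads between similar genes, and total RNA includes intronic and unspliced molecules.

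From these counts, genes listed in both tables (55487, of which 41759 had a count) were kept by filterByExpr, scaled by TMM and tested by the quasi-likelihood F test of edgeR 4.0.16 (R 4.3.3), with Benjamini-Hochberg adjusted p under 0.05, with batch as a term where both batches entered. For strain, counts were summed per mouse. CPM used TMM-scaled library sizes, and ratios and correlations log2(CPM + 0.5). DESeq2 1.42.0, size factors, no filter, single batches and leave-one-out (87 fits) were alternatives, as was the mouse as a block. Pairing comes from repeated sampling of the same animals. Over 2000 genes, residuals of the same mouse correlated by -0.0217 in NOR, 0.00341 in nonprogressors and -0.0174 in progressors, against 0.00647, -0.00167 and 0.0033 between mice. Groups are mice of 1 strain, and in all 416 pairs of replicates the counts differed beyond sampling noise (chi-square per degree of freedom at least 11.01).

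The members and gene lists were chosen with earlier results of these data known, so list counts are descriptions and not independent support. All 10 members are named, with up to 4 genes per list with the smallest p. The comparisons by batch and from 6 to 22 weeks between strains, strain with progressors alone, and leave-one-out for nonprogressors and progressors over time were added after the data were seen. Coordinates were matched for 55227 genes (99.5%) to GENCODE M21. Scripts were tested on simulated data. Another 6 nonprogressor samples, dated in days since implantation, are not tied to mice and were left out of tests. All members passed the filter in each comparison.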

Additional observations from a re-analysis of the deposited data

Results flagged for a closer look

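In groups of 4 to 10 samples, 14 of 230 combinations of a group and a member had a sample far from the rest by Dixon's test, where chance gives about 1 in 20. Of these, 7 were in the same library, nonprogressor mouse 4 at 10 weeks, which was high for Pdgfra (267 CPM), Dpt (235 CPM), Pi16 (239 CPM), Dpp4 (68.6 CPM), Cd34 (324 CPM), Ly6a (258 CPM) and Dcn (992 CPM). It was the highest of its 4 mice for all 10 members. Other high samples were Mfap5 in NOR mouse 5 at 14 weeks (100.6 CPM), Lum in nonprogressor mouse 1 at 14 weeks (136 CPM) and Pi16 in progressor mouse 1 at 5 weeks before onset (45.1 CPM). At onset in batch 2, Dpp4 was high in progressor mouse 7 (16.4 CPM) and Cd34 in mouse 6 (41.3 CPM). Low samples were Mfap5 in progressor mouse 9 at 3 weeks before onset (86.1 CPM) and Fap in mouse 10 at 5 weeks before onset (20.1 CPM).

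The change in progressors up to onset differed between the batches, tested with an interaction in edgeR. From 6 weeks of age, the log2 differences, batch 2 minus batch 1, were -3.71 for Dpt, -4.45 for Pi16, -3.76 for Dpp4, -3.40 for Cd34, -3.41 for Ly6a and -1.70 for Dcn. From 5 weeks before onset they were -4.69 for Dpt, -5.45 for Pi16, -4.49 for Dpp4, -4.04 for Cd34, -3.39 for Ly6a, -1.74 for Dcn and -2.27 for Fap. Sequencing run and cohort of mice cannot be told apart in these values. The samples taken 7 weeks before onset are the only ones of batch 1 mice sequenced in batch 2, and Pi16 there was 58.8 to 76.3 CPM in mice 1 to 4 and 48.5 to 94.1 CPM in mice 6, 7, 9 and 10.

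The change from 6 to 22 weeks of age differed between strains in batch 1, with log2 differences, nonprogressor minus NOR, of -2.95 for Ly6a, -1.98 for Dcn, -1.97 for Lum and -1.60 for Mfap5. When 1 mouse was left out, 0 members were called for each of 6 of the 9 mice.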

How the results depend on the processing

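Of 67 recounts of the members called under other settings, leave-one-out aside, 57 stayed within 1.5 times. Of 670 differences of single members, 585 kept direction and side of the threshold, 33 passed it newly, 16 no longer passed and 36 changed sign. With plain library sizes, 240 of 260 group means moved by less than 1 SD. The mouse as a replicate block left the 10 of 10 lower calls in nonprogressors and in progressors over time. It gave 6 and 9 calls for the changes by batch (6 and 7 without it), 3 for the strains up to 22 weeks (4 without it), and 0 for later times against 7 weeks before onset (1 without it; 0 of all genes against 828). It gave 2 of all genes for NOR age (7 without it), and changed no other call of the members. Signs under the block turned for Cd34 0.0739 in NOR age, Mfap5 0.0642 against 7 weeks before onset, and Dpp4 -0.21 for onset minus 5 weeks before.

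For strain, 6-week samples alone gave Pdgfra 0.19, Dpt 0.53, Pi16 0.58, Dcn 0.48, Fap 0.39 and Mfap5 0.48, nonprogressors alone Dpp4 -0.00415 and Dcn 0.0201, progressors alone Lum -0.0766, and separate samples Dpp4 -0.0419 and Cd34 -0.0317; all genes called were 403 at 6 weeks and 1099 with progressors alone (2101 otherwise). For NOR age without the 18-week library of mouse 5, values were Pi16 -0.0564, Ly6a -0.12, Dcn -0.0147 and Mfap5 -0.0333, and all genes called 12, as without a filter, and 46 by DESeq2. At 6 weeks, Pdgfra was -0.0483 within batch 2, and with no batch term Pdgfra -0.0241, Cd34 -0.0123, Ly6a -0.00799, Dcn -0.0817 and Lum -0.13. Nonprogressor age had 6 members and 2712 of all genes within batch 1 and 9173 genes with no batch term (5094 otherwise). Progressors against 6 weeks had 6 members and 5317 genes within batch 1 (8403 otherwise). Against 7 weeks before onset, members called were 2 by DESeq2, 0 without a filter, 8 within batch 2 and 3 with no batch term, and all genes 1352 and 2157 in the latter cases. Onset minus 5 weeks before gave Pdgfra 0.18, Dpt 1.57, Pi16 2.10, Cd34 1.65, Ly6a 1.24, Dcn 0.29, Lum 0.15, Fap 0.44 and Mfap5 0.37 within batch 1. Dpp4 was -2.50 within batch 2, where 10 members were called, and with no batch term Pi16 was 0.0316 and Dpp4 -0.33. All genes called there were 839 by DESeq2, 103 without a filter, 1 and 1973 within batches 1 and 2, and 14 with no batch term (377 otherwise). DESeq2 called 63 genes for late progressors against nonprogressors and 9 for strain by age (0 otherwise in both). Without a filter, 856 and 921 genes differed by batch up to onset (1470 and 1462 otherwise). For the strains up to 22 weeks, DESeq2 called 10 members and 846 genes, and no filter 1 and 120 (4 and 254 otherwise).

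Leaving out each mouse in turn, strain had 0 to 1 members called, with Dpt -0.26 to 0.052, Dpp4 -0.12 to 0.18 and Cd34 -0.0236 to 0.23. NOR age had 0 to 54 of all genes called, with Pdgfra -0.11 to 0.23, Dpt -0.44 to 0.0529, Pi16 -0.27 to 0.64, Dpp4 -0.54 to 0.20, Cd34 -0.32 to 0.16, Ly6a -0.28 to 0.36, Dcn -0.15 to 0.17, Fap -0.37 to 0.0774 and Mfap5 -0.14 to 0.12. Late progressors against nonprogressors had Pdgfra -0.13 to 0.22, Dcn -0.10 to 0.40, Lum -0.0895 to 0.41 and Mfap5 -0.28 to 0.24. All genes called were 2786 to 5367 for nonprogressor age, 571 to 1531 and 356 to 1484 for the changes by batch, and 20 to 511 for the strains up to 22 weeks, where 0 to 6 members were called. The causes of these moves were not tested, except that subsets hold fewer samples. All alternatives that were listed gave a value. With 4 to 8 samples per group and time, small differences could not be shown, and the lowest member count of 17 (Fap) limits its precision.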

Other observations

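In nonprogressors, 6 samples of batch 1 were dated in days since implantation, and no test was run on them. Pi16, the adventitial marker, was 125.7 and 73.9 CPM at 31 days, 69.5 and 34.7 CPM at 38 days and 68.8 and 80.1 CPM at 108 days. Dcn, the proteoglycan, was 431 and 408 CPM at 31 days, 404 and 372 CPM at 38 days and 471 and 433 CPM at 108 days. Fap stayed within 22.0 to 25.4 CPM over the 6 samples, and Pdgfra within 161 to 219 CPM. Dpp4 was lowest in a sample at 38 days (6.11 CPM) and highest in one at 31 days (24.9 CPM).

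Progressors 1 week before onset gave further levels by cohort. In batch 1, mean Pi16 was 100.9 CPM and mean Cd34 149 CPM (n = 5), and in batch 2, 32.9 and 93.2 CPM (n = 5). Mean Dcn was 323 CPM in batch 1 and 376 CPM in batch 2, and mean Mfap5 71.9 and 102.6 CPM. The subset markers and the matrix genes thus had opposite orders between the cohorts at this time, and these differences were not tested.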
